A study of Mus musculus with 28 samples.

Results

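The NADPH oxidase of phagocytes and the inducible nitric oxide synthase were followed in hippocampal microglia through 6 genes, chosen by name among the 48587 genes of the count table: *Cybb*, *Cyba*, *Ncf1*, *Ncf4*, *Hvcn1* and *Nos2*. Microglia were FACS-isolated as viable CD11b+CD45low cells from 28 mice, after cells with lymphocyte, Ly6C or Ly6G staining had been gated out. The 5xFAD mice were heterozygous for human APP and PS1 transgenes with familial AD mutations, driven by the Thy-1 promoter on a C57BL/6J background, and WT mice were their non-transgenic littermates. All mice were 16 weeks old according to the labels, and all were kept under 1 of 3 conditions. SPF mice (5 WT and 3 5xFAD) carried a specific pathogen free microbiota, GF mice (4 WT and 5 5xFAD) were germ-free, and ABX mice (5 WT and 6 5xFAD) drank water with vancomycin, cefoxitin, gentamicin and metronidazol for 8 weeks. GF mice were raised in a facility in Bern and all others in Freiburg, and this difference in origin cannot be told apart from the germ-free state. The comparisons ask how the genotype, and the absence or depletion of gut bacteria, went with the level of each gene.

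The phagocyte oxidase moves electrons from NADPH inside the cell to oxygen across a membrane and so produces superoxide. Its membrane part is made of gp91phox (NOX2, encoded by *Cybb*) and p22phox (*Cyba*), which stabilise each other, and the enzyme stays silent until cytosolic subunits, among them p47phox (*Ncf1*) and p40phox (*Ncf4*), join it together with a Rac GTPase. The proton channel *Hvcn1* lets protons follow the electrons and thereby sustains the reaction. *Nos2*, induced in mouse macrophages by interferon gamma and bacterial products, makes nitric oxide from arginine, with NADPH as the electron donor and tetrahydrobiopterin as a cofactor.

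Each library held 14441610 to 29977395 reads assigned to genes, and levels are given as CPM, the reads of a gene as a share of its library after TMM scaling. Sums of marker genes, and the limit given for *Nos2*, use library totals without TMM scaling. The replicates differed by more than counting noise in every group. Microglia markers summed to 50728 CPM or more in each library, lower in 5xFAD (50728 to 62398) than in WT mice (65024 to 72706). The library descriptions follow 3 numbering styles: the first covers all SPF WT and ABX WT mice, the second the SPF 5xFAD mice and mouse FAD_ABX_1151, and the third the remaining 5 ABX 5xFAD animals and both GF groups. Whether the styles mark batches is not stated, and WT and 5xFAD mice share no style under SPF or under ABX conditions, so that style and genotype cannot be told apart there. The same holds for style and condition between GF and SPF or ABX WT mice. Among 5xFAD mice it holds between SPF and GF or ABX mice, apart from the link that FAD_ABX_1151 gives. The genotype comparison in GF mice lies within 1 style. Interactions of GF with SPF or ABX mice therefore set a genotype effect within 1 style against an effect across styles. Style and condition cannot be told apart in them either. A set of 10 neutrophil markers summed to 65.6 to 274 CPM in the SPF 5xFAD mice and 151 in FAD_ABX_1151, the 4 libraries of the second style, and to at most 0.708 in the other libraries. Title and genotype make FAD_GF_201 a 5xFAD animal where its description says WT, and it is counted as GF 5xFAD.

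*Cybb* was nearly silent in SPF WT microglia and was clearly expressed in microglia from every 5xFAD mouse. It is the catalytic subunit, and lies on the minus strand of chromosome X from 9435252 to 9487771 (GRCm38). In SPF WT mice its level was 1.18, 0.460, 6.15, 0.948 and 0.842 CPM, and in SPF 5xFAD mice 68.7, 59.1 and 77.1 CPM. Mouse WT_SPF_926 with 6.15 CPM stood above its 4 group mates, and all 3 SPF 5xFAD mice stood far above it. In bulk RNA, more cells that express a gene and more RNA per cell cannot be told apart.

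The same separation was seen in GF and in ABX mice. GF WT mice had 3.71, 17.9, 25.5 and 8.05 CPM of *Cybb*, and GF 5xFAD mice 106, 84.5, 78.8, 111 and 66.1 CPM. ABX WT mice had 6.13, 3.31, 0.832, 3.47 and 2.54 CPM, and the 6 ABX 5xFAD mice had a lowest, median and highest value of 53.7, 64.9 and 92.3 CPM. In no condition did the WT and 5xFAD ranges overlap, and the highest WT mouse of all, WT_GF_230, lay below the lowest 5xFAD mouse.

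**Figure D1:**
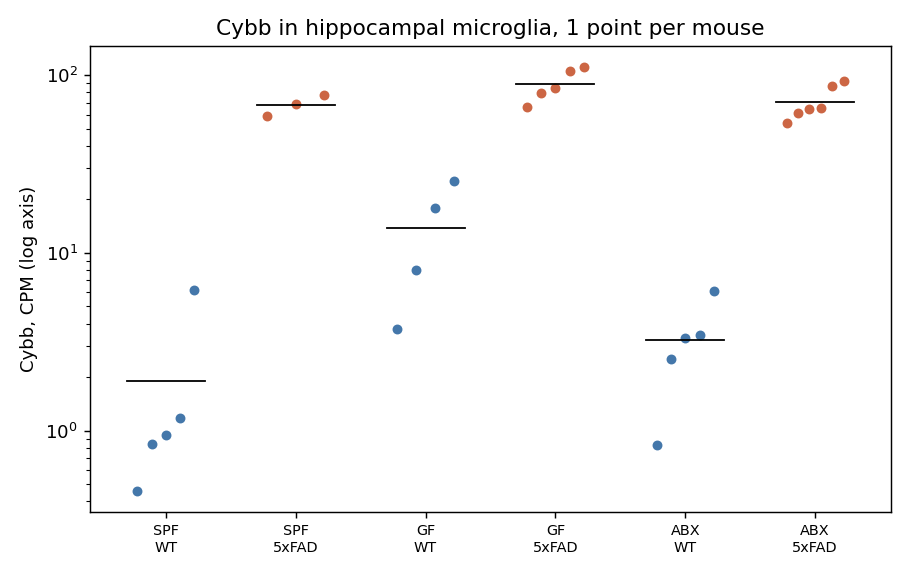
*Cybb* in microglia from each mouse, in CPM on a log axis, by condition (SPF, GF, ABX) and genotype (WT blue, 5xFAD orange); horizontal lines are group means. All 14 5xFAD mice lie at 53.7 CPM or above and all 14 WT mice at 25.5 CPM or below.

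The log2 fold change of *Cybb* between 5xFAD and WT microglia was 5.24 in SPF mice (SE 0.562, adjusted p = 1.86e-07, edgeR quasi-likelihood test), 2.696 in GF mice (SE 0.497, adjusted p = 0.000288) and 4.45 in ABX mice (SE 0.504, adjusted p = 3.12e-07). Group means were 1.92 ± 2.38 (SD, n = 5) against 68.3 ± 8.98 CPM (n = 3) in SPF mice, 13.8 ± 9.81 (n = 4) against 89.2 ± 18.8 CPM (n = 5) in GF mice, and 3.26 ± 1.92 (n = 5) against 70.5 ± 15.2 CPM (n = 6) in ABX mice. The ratio of these means was 35.7 under SPF, 6.47 under GF and 21.7 under ABX conditions. Without WT_SPF_926 the SPF WT mean was 0.858 CPM and the SPF ratio 79.6. *Cybb* passed the test in each condition under each of the 38 alternative settings. None of these settings fitted numbering style, which cannot be told apart from genotype under SPF or ABX conditions.

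The smaller ratio in GF mice went with a higher WT level rather than a lower 5xFAD level. Among WT mice *Cybb* rose in GF against SPF mice, with a log2 difference of 2.93 ± 0.533 (SE; adjusted p = 0.00678), and it was lower in ABX than in GF WT mice (-2.09 ± 0.508, adjusted p = 0.0136). The first call was lost when only the 2 groups were fitted, at a log2 difference of 2.91 (adjusted p = 0.0638), and over all alternatives this difference lay between 2.44 and 4.01. The second was lost without WT_GF_230, the highest WT mouse (log2 fold change -1.60, adjusted p = 0.0681). The ranges of GF WT and SPF WT mice overlapped, with 3 of 4 GF mice above all SPF mice. ABX and SPF WT mice, at a log2 difference of 0.84 (SE 0.547), had an adjusted p of 1 and overlapping ranges.

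Whether the 5xFAD effect on *Cybb* itself differed between conditions was tested as an interaction. The effect in GF mice minus that in SPF mice was -2.54 on the log2 scale (SE 0.713, unadjusted p = 0.00140), with an adjusted p of 0.340 by edgeR. It passed with limma's voom (-3.15, adjusted p = 0.0213), and by edgeR without WT_SPF_926 (-3.64, adjusted p = 0.0239). The other 2 interactions, ABX minus SPF (-0.79, SE 0.718) and ABX minus GF (1.75, SE 0.650), had adjusted p-values of 0.876 and 0.163. Among 5xFAD mice the level ran from SPF (68.3) over ABX (70.5) to GF (89.2 CPM), and no neighbouring pair passed, with adjusted p-values of 0.989 for ABX against SPF and 0.657 for ABX against GF.

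Marker genes of other myeloid cells were set beside *Cybb*, because blood and border-associated phagocytes also express it. In GF 5xFAD mice the 10 neutrophil markers summed to at most 0.0495 CPM, while *Cybb* lay between 66.1 and 111 CPM. In SPF 5xFAD mice they summed to 65.6 to 274 CPM and in FAD_ABX_1151 to 151 CPM, and their part in the *Cybb* level of these 4 libraries was not tested. The 7 border-associated macrophage markers summed to 3.48 to 8.15 CPM in SPF WT, 10.7 to 43.9 in GF WT, 3.80 to 5.90 in ABX WT, 16.1 to 29.2 in SPF 5xFAD, 10.0 to 81.0 in GF 5xFAD and 34.0 to 253 CPM in ABX 5xFAD mice. Of these markers *Mrc1* had reads in all libraries, while *Lyve1* was at 0 in 13 and *Cd163* in 10 of the 28. GF WT mice were thus above SPF WT mice in both *Cybb* and these markers, and the markers' part in that difference was not tested. Between genotypes these sums did not overlap under SPF or ABX conditions and were higher in 5xFAD mice, in the direction of *Cybb*, while in GF mice they overlapped. Their part in the genotype difference was not tested. The 7 monocyte markers summed to 6.97 to 8.57 CPM in SPF WT against 20.3 to 39.5 in SPF 5xFAD mice, to 3.75 to 9.32 in ABX WT against 15.4 to 54.6 in ABX 5xFAD mice, and to 3.76 to 16.9 in GF WT against 8.86 to 31.8 CPM in GF 5xFAD mice. They too were higher in 5xFAD mice without overlap under SPF and ABX conditions and overlapped in GF mice, and their part was not tested either.

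**Figure D2:**
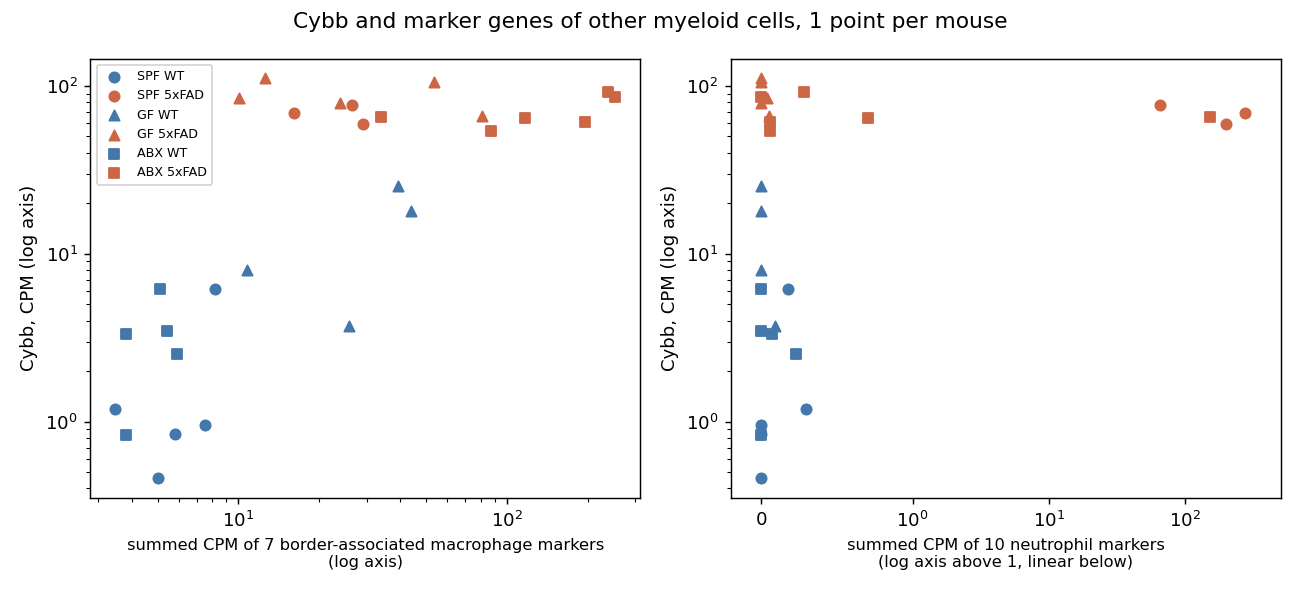
*Cybb* (CPM, log axis) against the summed CPM of 7 border-associated macrophage markers (left, log axis) and 10 neutrophil markers (right, linear below 1 and logarithmic above), 1 point per mouse, WT in blue and 5xFAD in orange, with circles for SPF, triangles for GF and squares for ABX. Marker sums use library totals, and *Cybb* is TMM-scaled. 5xFAD mice lie above WT mice on the *Cybb* axis, their macrophage marker sums overlap with those of WT mice in the GF groups and not in the SPF or ABX groups, and only the SPF 5xFAD mice and FAD_ABX_1151 have neutrophil markers above 1 CPM.

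The promoter of *Cybb* is shown because this gene moved most of the 6. RefSeq (GRCm38.p6) places it at chrX:9469275-9469574 on the minus strand, 250 bases before to 50 after a start site inside the annotated gene. Promoter windows were found for 3 of the 6 genes, *Cybb*, *Cyba* and *Ncf1*. Motifs searched on both strands were the PU.1 core GAGGAAGT, its shorter form GAGGAA that lies within it, the interferon response element GAAANNGAA, the gamma-activated site TTCNNNGAA, the kappaB motif GGGANTNTC and the TATA box TATAAA. Capitals mark the matches, 5′ to 3′.
Cybb: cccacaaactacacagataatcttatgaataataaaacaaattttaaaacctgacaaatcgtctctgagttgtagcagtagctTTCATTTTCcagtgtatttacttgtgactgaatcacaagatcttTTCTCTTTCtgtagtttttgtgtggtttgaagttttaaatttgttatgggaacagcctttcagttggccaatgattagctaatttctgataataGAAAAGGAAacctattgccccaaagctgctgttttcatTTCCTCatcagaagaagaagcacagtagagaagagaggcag
GAAANNGAA matched at 3 places in this window, starting at positions -167, -123 and -29 from the start site, the first 2 on the opposite strand. Of all 32851 promoter windows of this length 8.56 percent held at least 1 match and 0.0639 percent at least 3. GAGGAA matched once, on the opposite strand at position 10, as in 28.3 percent of windows, and the other motifs had no match. A match is a run of letters and no measured binding.

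*Cyba*, the membrane partner of *Cybb*, was abundant in every group and was highest in microglia from GF 5xFAD mice. It lies on the minus strand of chromosome 8 from 122424776 to 122432930. SPF WT mice had 460, 434, 424, 446 and 422 CPM, and SPF 5xFAD mice 587, 491 and 523 CPM. GF WT mice had 405, 517, 559 and 465 CPM, and GF 5xFAD mice 918, 860, 903, 938 and 647 CPM. Both 5xFAD groups lay wholly above their WT groups, and the GF 5xFAD mice lay wholly above the SPF 5xFAD mice.

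ABX mice were less clearly separated for *Cyba*. ABX WT mice ranged from 405 to 472 CPM, and the ABX 5xFAD mice had a lowest, median and highest value of 439, 576 and 817 CPM. The lowest of them, FAD_ABX_1151, fell among the WT mice, and the other 5 lay above these.

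Comparing 5xFAD with WT microglia, *Cyba* rose in GF mice, with a log2 value of 0.81 ± 0.127 (SE; adjusted p = 2.69e-05), and in ABX mice, with 0.50 ± 0.114 (adjusted p = 0.00260). In SPF mice the value was 0.29 (SE 0.135, adjusted p = 0.318). The call in ABX mice was lost with GC content offsets (0.30, adjusted p = 0.0545), and *Cyba* transcripts are 59.3 percent GC against a median of 49.0 percent over the genes tested. The SPF value passed with voom (adjusted p = 0.0418) and when only the groups compared were fitted (0.0196). Mean levels ran in the order ABX WT (432 ± 27.96), SPF WT (437 ± 16.1), GF WT (487 ± 66.6), SPF 5xFAD (534 ± 48.8), ABX 5xFAD (612 ± 133) and GF 5xFAD (853 ± 119 CPM). No comparison among the 3 WT groups passed, nor did that of SPF with ABX 5xFAD mice (adjusted p = 0.784).

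Within 5xFAD mice *Cyba* was the 1 member that passed in a comparison of conditions. It was higher in GF than in SPF mice, the log2 difference being 0.68 ± 0.139 (SE; adjusted p = 0.00289), and lower in ABX than in GF mice, at -0.48 ± 0.112 (adjusted p = 0.00719). The GF against SPF call was lost when numbering style entered the fit (0.12, adjusted p = 1.00), a fit in which FAD_ABX_1151 alone links the styles. The ABX against GF call was lost when only those 2 groups were fitted (-0.45, adjusted p = 0.0964). In WT mice the GF against SPF value was 0.15 (SE 0.125, adjusted p = 0.588). The interaction, the 5xFAD effect in GF minus that in SPF mice, was 0.52 (SE 0.186, unadjusted p = 0.00867, adjusted p = 0.444), and by voom 0.53 (adjusted p = 0.0489).

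*Hvcn1*, the proton channel, was higher in 5xFAD microglia under all 3 conditions and passed the test in GF and ABX mice. It lies on the plus strand of chromosome 5 from 122206804 to 122242297 and shares exon bases with *Tctn1* on the other strand, from which these unstranded reads cannot be told apart. SPF WT mice had 143, 140, 135, 143 and 133 CPM, and SPF 5xFAD mice 167, 182.1 and 165 CPM. GF WT mice had 150, 135, 130 and 135 CPM, and GF 5xFAD mice 195, 208, 164, 163 and 164 CPM. ABX WT mice ranged from 110 to 140 CPM, and ABX 5xFAD mice had a lowest, median and highest value of 146, 165 and 213 CPM. WT and 5xFAD mice did not overlap under any of the 3 conditions.

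Its log2 fold change was 0.31 in SPF mice (SE 0.104, adjusted p = 0.100), 0.38 in GF mice (SE 0.0971, adjusted p = 0.00683) and 0.39 in ABX mice (SE 0.0876, adjusted p = 0.00228). The SPF value passed with DESeq2 (adjusted p = 0.0436), voom (0.00308), gene length offsets (0.0431) and only the groups compared (0.0148). Means were 131 ± 11.8, 138 ± 8.79 and 138 ± 4.67 CPM in ABX, GF and SPF WT mice, and 171 ± 9.45, 171 ± 23.9 and 179 ± 21.4 CPM in SPF, ABX and GF 5xFAD mice. No comparison of conditions within a genotype passed for *Hvcn1*, and its interactions lay between 0.02 and 0.09 on the log2 scale.

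*Ncf1*, which encodes p47phox, the organiser that carries the cytosolic subunits to the membrane, was lower in 5xFAD microglia. It lies on the minus strand of chromosome 5 from 134220053 to 134229625 and shares exon bases with *Gtf2ird2* on the other strand. SPF WT mice had 722, 748, 640, 791 and 722 CPM, and SPF 5xFAD mice 662, 598 and 605 CPM. GF WT mice had 679, 761, 768 and 735 CPM, and GF 5xFAD mice 603, 600, 607, 574 and 583 CPM. ABX WT mice ranged from 685 to 787 CPM, and ABX 5xFAD mice had a lowest, median and highest value of 573, 639 and 690 CPM. Only the GF groups were fully separated. In SPF mice 2 of 3 and in ABX mice 5 of 6 5xFAD mice lay below all WT mice.

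*Ncf1* fell in GF mice, with a log2 value of -0.31 ± 0.0682 (SE; adjusted p = 0.00165). In SPF mice the value was -0.22 (SE 0.0750, adjusted p = 0.0995), and it passed with voom (adjusted p = 0.000756) and with library size alone (0.0157). In ABX mice it was -0.19 (SE 0.0617, adjusted p = 0.0407), close to the threshold of 0.05. The ABX call was lost in 15 of 38 alternatives, among them the removal of any 1 of 11 mice (FAD_ABX_1151, FAD_ABX_1453, FAD_ABX_1455, WT_ABX_909, WT_ABX_911, WT_ABX_932, FAD_GF_181, FAD_GF_182, FAD_GF_184, FAD_GF_185 or FAD_SPF_1148; log2 fold change -0.19 to -0.16, adjusted p from 0.0506 to 0.112). WT means were close to each other, at 724 ± 54.9, 726 ± 44.5 and 736 ± 40.4 CPM in SPF, ABX and GF mice, and 5xFAD means were 593 ± 14.4, 622 ± 35.1 and 639 ± 44.3 CPM in GF, SPF and ABX mice.

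The *Ncf1* promoter is shown for comparison with that of *Cybb*, since the subunits moved in opposite directions. Its window is chr5:134229576-134229875 on the minus strand (RefSeq, GRCm38.p6), with capitals as above.
Ncf1: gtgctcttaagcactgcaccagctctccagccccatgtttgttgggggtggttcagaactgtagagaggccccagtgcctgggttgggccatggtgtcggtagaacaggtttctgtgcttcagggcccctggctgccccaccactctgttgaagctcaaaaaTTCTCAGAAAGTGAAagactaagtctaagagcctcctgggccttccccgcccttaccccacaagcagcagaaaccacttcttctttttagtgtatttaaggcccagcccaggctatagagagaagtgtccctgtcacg
Here GAAANNGAA matched once, at position -82, overlapping a match of TTCNNNGAA at position -88, a motif held by 8.30 percent of windows. The *Cyba* window held no match to any of the motifs, which for GAGGAAGT, GGGANTNTC and TATAAA are held by 3.20, 3.49 and 13.6 percent of windows.

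*Ncf4*, which encodes p40phox, the subunit that binds the phagosome's phosphoinositides, was also lower in 5xFAD mice, most clearly under SPF conditions. It lies on the plus strand of chromosome 15 from 78244801 to 78262580. SPF WT mice had 118, 111, 113, 104 and 104 CPM, and SPF 5xFAD mice 88.1, 81.5 and 73.7 CPM. These groups did not overlap. GF WT mice ranged from 87.5 to 113 and GF 5xFAD mice from 79.9 to 115 CPM, and ABX WT mice ranged from 75.1 to 101 and ABX 5xFAD mice from 73.6 to 97.2 CPM, so that both pairs overlapped.

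The log2 fold change of *Ncf4* was -0.44 in SPF mice (SE 0.124, adjusted p = 0.0321), -0.16 in GF mice (SE 0.112, adjusted p = 0.379) and -0.13 in ABX mice (SE 0.101, adjusted p = 0.466). The SPF call was lost without any 1 of FAD_SPF_1144, FAD_SPF_1146, FAD_SPF_1148, WT_SPF_912, WT_SPF_925 or WT_SPF_926 (log2 fold change -0.50 to -0.37, adjusted p from 0.0594 to 0.234). Group means fell from 110 ± 6.08 in SPF WT over 105 ± 11.6 in GF WT, 93.7 ± 14.7 in GF 5xFAD, 93.0 ± 11.2 in ABX WT and 85.3 ± 9.49 in ABX 5xFAD to 81.1 ± 7.18 CPM in SPF 5xFAD mice. ABX WT mice lay wholly below SPF WT mice for this gene (log2 difference -0.25, SE 0.106, unadjusted p = 0.0278, adjusted p = 1; exact two-sided permutation p = 0.00794 before correction, 1 of 45 such tests). That permutation p is the smallest that 5 against 5 mice can give, and it follows from the lack of overlap alone.

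**Figure D3:**
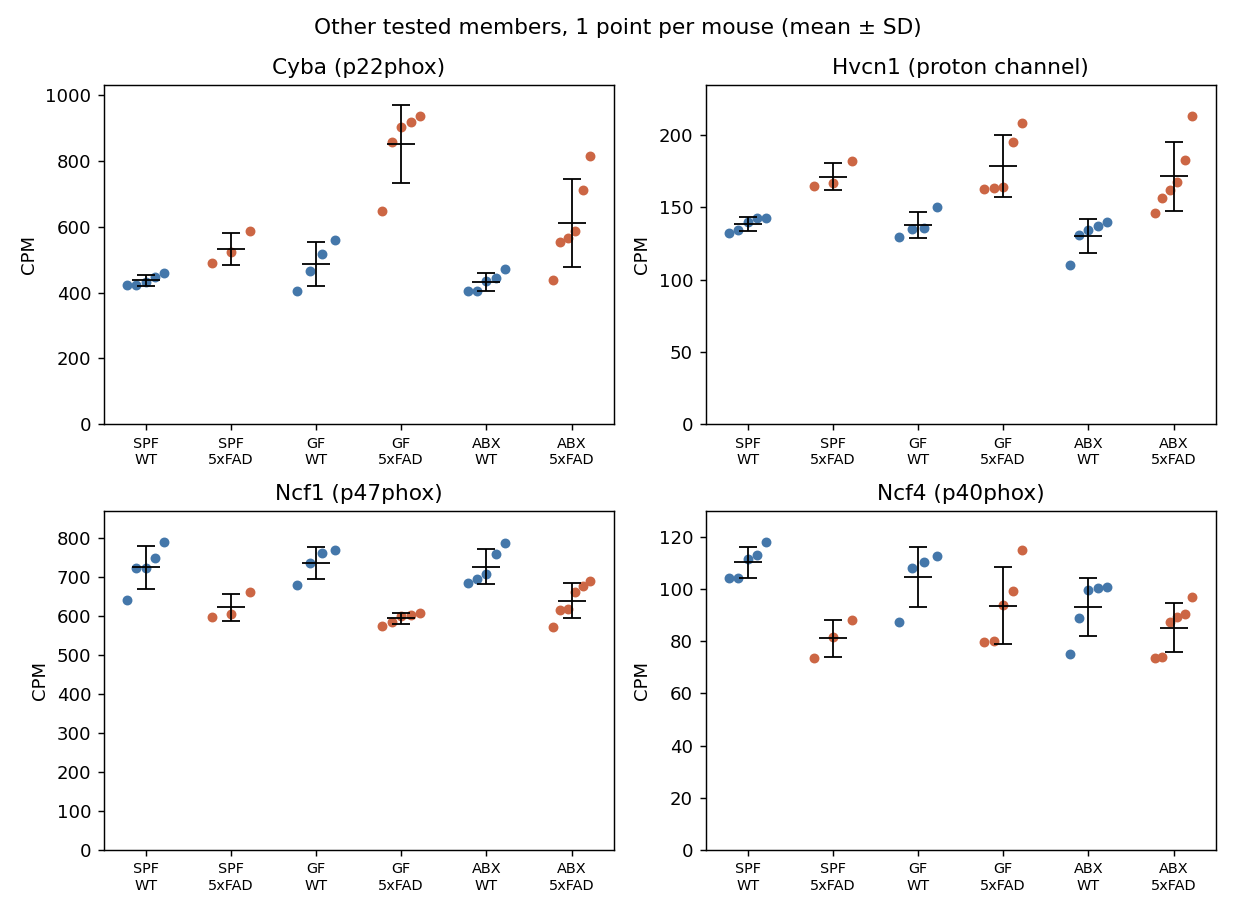
*Cyba*, *Hvcn1*, *Ncf1* and *Ncf4* in CPM for each mouse, by condition and genotype (WT blue, 5xFAD orange), with mean ± SD; axes start at 0. *Cyba* reaches 938 CPM in GF 5xFAD mice, *Hvcn1* is higher and *Ncf1* lower in 5xFAD mice, and *Ncf4* is lower in SPF 5xFAD than in SPF WT mice.

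*Nos2* was not detectable at this depth. It lies on the plus strand of chromosome 11 from 78920787 to 78960254, and 2 reads were assigned to it among the 565815621 reads of all 28 libraries, 1 in WT_SPF_936 and 1 in WT_GF_230. All 5xFAD libraries were at 0. A count of 0 allows up to 3 reads in a library, that is 0.100 to 0.208 CPM, a limit for counting error only. The constitutive synthases were near 0 as well, with at most 2 reads of *Nos1* and 23 of *Nos3* in a library. Thus *Nos2* did not enter the test, and all counts of tested members refer to the other 5.

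Seen by comparison, in SPF mice *Cybb* rose and *Ncf4* fell between WT and 5xFAD microglia, and 3 members did not pass. Of all 15298 genes tested 3.78 percent rose and 0.882 percent fell there. In GF mice *Cybb*, *Cyba* and *Hvcn1* rose and *Ncf1* fell (9.49 and 6.27 percent of all genes), and in ABX mice the same 3 rose and *Ncf1* fell (9.45 and 5.00 percent). Averaged over the 3 conditions, 3 members rose and 2 fell, with log2 fold changes of 4.13 for *Cybb*, 0.53 for *Cyba*, 0.36 for *Hvcn1*, -0.24 for *Ncf1* and -0.24 for *Ncf4* (14.3 and 10.9 percent of all genes). The median over the 5 members was 0.36, and over all genes tested -0.03. In the F test over the 6 groups all 5 passed, as did 33.3 percent of all genes.

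**Figure D4:**
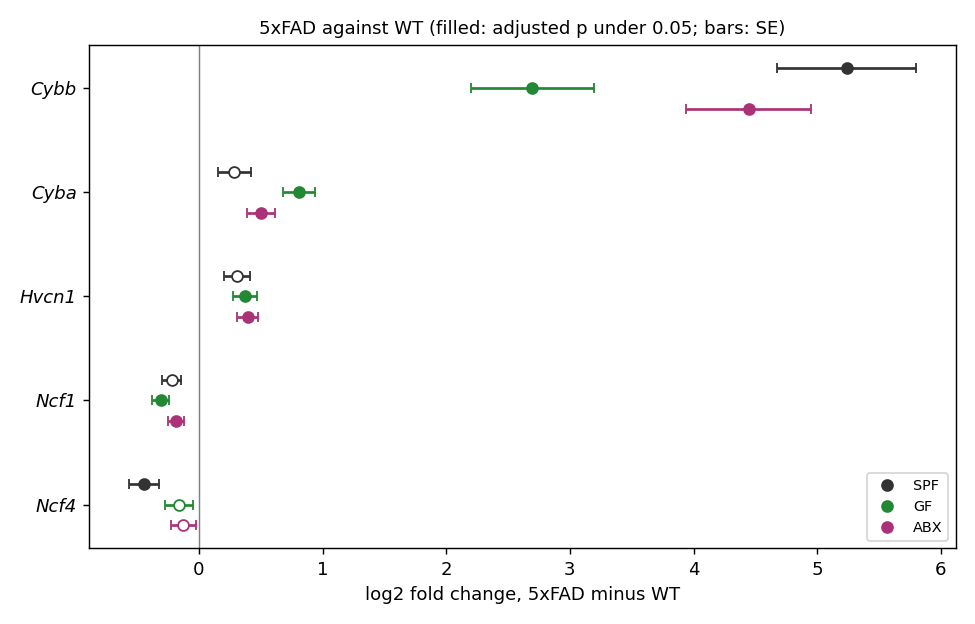
Log2 fold change of 5xFAD against WT microglia for the 5 tested members in SPF (black), GF (green) and ABX mice (purple), with SE as bars; filled points have an adjusted p under 0.05. *Cybb* stands at 2.696 to 5.24, *Cyba* and *Hvcn1* lie above 0 and *Ncf1* and *Ncf4* below 0 in all 3 conditions.

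The comparisons of conditions within a genotype share the SPF or the GF mice, and at most 1 member passed in each. Among 5xFAD mice *Cyba* rose in GF against SPF mice (7.01 percent of all genes rose), no member passed in ABX against SPF mice (0 percent of all genes, and 0 members at an unadjusted p under 0.05, by DESeq2 or by voom), and *Cyba* fell in ABX against GF mice (6.07 percent). Among WT mice *Cybb* rose in GF against SPF mice (0.869 percent), no member passed in ABX against SPF mice (0 percent, with *Ncf4* at an unadjusted p under 0.05 and 0 members by DESeq2 and voom), and *Cybb* fell in ABX against GF mice (4.55 percent). No member passed the edgeR test of any interaction. Of all genes 0 percent passed for GF against SPF and for ABX against SPF, and 1.91 percent for ABX against GF. At an unadjusted p under 0.05 the counts were 2 (*Cyba* and *Cybb*), 0 and 1 (*Cybb*), DESeq2 gave 0 throughout, and voom gave 2, 0 and 0.

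**Figure D5:**
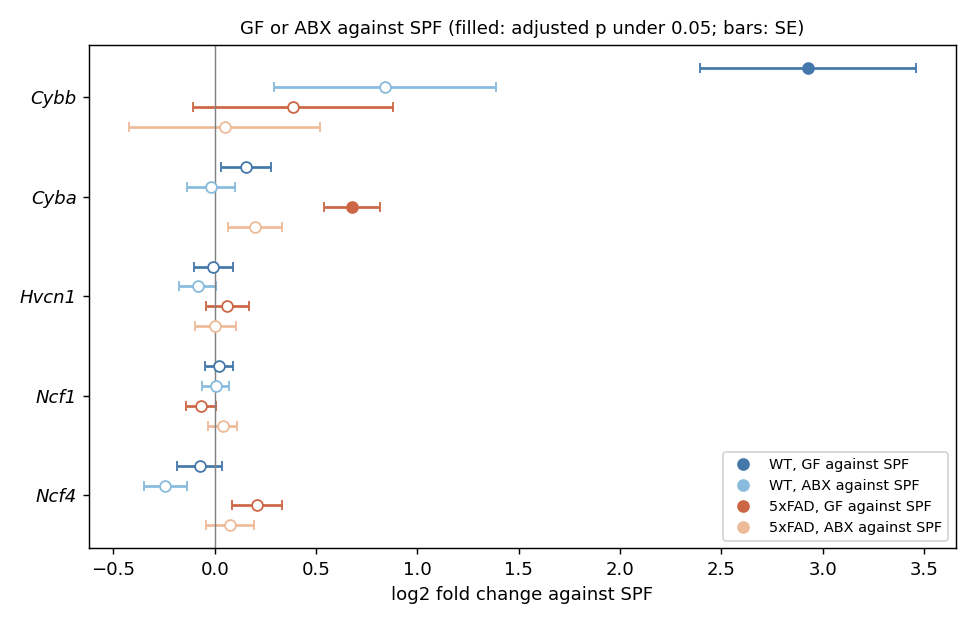
Log2 fold change of GF or ABX against SPF mice for the 5 tested members, in WT (blue) and 5xFAD mice (orange), with SE as bars; filled points have an adjusted p under 0.05. *Cybb* in GF WT mice (2.93) and *Cyba* in GF 5xFAD mice (0.68) are the filled points.

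Per length of transcript, *Cybb* was the scarcest of the 5 tested members in every group. In SPF WT mice the mean level in RPKM (CPM divided by the exon length in kilobases) was 421 for *Cyba*, 198 for *Ncf1*, 54.6 for *Ncf4*, 38.9 for *Hvcn1* and 0.330 for *Cybb*. In SPF 5xFAD mice it was 514, 170, 40.1, 48.1 and 11.8 RPKM in the same order of genes. *Cybb* thus moved towards the other subunits. The RPKM level of *Cyba* was 1276 times that of *Cybb* in SPF WT mice and 43.7 times in SPF 5xFAD mice, 197 and 53.5 times in GF mice, and 742 and 48.5 times in ABX mice. The first of these ratios rested on WT_SPF_926, without which it was 2869. *Hvcn1* was below *Ncf4* in all 3 WT groups and above it in all 3 5xFAD groups.

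Other genes of oxidase assembly were measured beside the members. *Cybc1*, a chaperone of the membrane subunits, fell in GF 5xFAD against GF WT mice (log2 fold change -0.29, adjusted p = 0.0445), from 235 ± 21.5 to 192 ± 31.5 CPM. The GTPases *Rac1* and *Rac2* passed in none of the 3 conditions. Of 9 genes of the other NADPH oxidases only 2 had enough reads to be tested, and of these 1, *Duoxa1*, a maturation factor of a dual oxidase, fell in GF mice (-1.19, adjusted p = 0.0141), where 6.27 percent of all genes fell.

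Among 14 signalling genes that act upstream of oxidase assembly, all tested, 0 passed in SPF mice (3.78 percent of all genes rose and 0.882 percent fell). In GF mice 6 fell and 0 rose (6.27 percent of all genes fell and 9.49 percent rose), and in ABX mice 3 fell and 2 rose (5.00 and 9.45 percent). Protein kinase C phosphorylates p47phox, and *Prkca* fell in GF mice (log2 fold change -1.18, SE 0.140, adjusted p = 3.01e-07) and in ABX mice (-0.43, adjusted p = 0.0205). *Mapk14*, the p38 kinase (-0.55), *Pak1*, a Rac effector kinase (-0.39), *Prkcb* (-0.31), *Prkcd* (-0.28) and *Vav1*, an exchange factor for Rac (-0.22), were the others that fell in GF mice. In ABX mice *Rap1a* (-0.66) and *Pak1* (-0.39) fell, and the Rac exchange factors *Tiam1* (0.98) and *Dock2* (0.38) rose. The effect in ABX minus that in GF mice passed for 4 of the 14, beside 1.91 percent of all genes, namely *Prkca* (0.76, adjusted p = 0.0385), *Prkcb* (0.55, 0.0423), *Dock2* (0.59, 0.0265) and *Rap1a* (-0.81, 0.0385).

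Within 5xFAD mice *Prkca* was lower in GF than in SPF mice (-0.95, adjusted p = 0.00062) and *Pak2* too (-0.46, adjusted p = 0.0326), while *Arhgdib*, an inhibitor of small GTPases, was higher (0.63, adjusted p = 0.00151). Among WT mice *Rap1a* was lower in GF than in SPF mice (-0.57, adjusted p = 0.0445).

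Of 9 genes linked to NADPH supply, none passed in SPF mice (3.78 percent of all genes rose there), and 2 rose in GF and in ABX mice (9.49 and 9.45 percent of all genes). The 2 were *G6pdx*, the entry enzyme of the pentose phosphate pathway (0.37 and 0.34), and *Tkt*, the transketolase of the same pathway (0.56 and 0.70). When GF were compared with SPF 5xFAD mice, 3 genes of this list rose, *Tkt* (0.53), *Taldo1* (0.58) and *Pgls* (0.53), beside 7.01 percent of all genes. These 3 enzymes do not themselves make NADPH, and *G6pdx*, which does, did not pass there (0.22, adjusted p = 0.168).

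Among genes for the substrate and cofactor of *Nos2*, 9 of 12 could be tested. None passed in SPF mice, where 3.78 percent of all genes rose and 0.882 percent fell, and 2 rose in GF and in ABX mice, where 9.49 and 9.45 percent of all genes did. *Slc7a1*, an arginine transporter, rose in GF (0.93) and ABX mice (0.76), as did *Qdpr*, which recycles tetrahydrobiopterin (0.63 and 0.31). In GF against SPF 5xFAD mice 3 of the 9 rose, *Asl* (0.63), *Spr* (0.55) and *Qdpr* (0.50), beside 7.01 percent of all genes. *Asl*, an enzyme of arginine synthesis, also rose in GF against SPF WT mice (0.55, adjusted p = 0.0197). Of 5 genes of the other synthases and the nitric oxide receptor only *Nosip* was testable, and it rose in GF against SPF 5xFAD mice (0.44, adjusted p = 0.0301).

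Regulators of *Nos2* and of the oxidase genes moved in both directions, with 2 of 10 rising and 1 falling in SPF mice (3.78 and 0.882 percent of all genes), 3 and 2 in GF mice (9.49 and 6.27 percent), and 4 and 1 in ABX mice (9.45 and 5.00 percent). *Hif1a*, the oxygen-regulated transcription factor, rose under all conditions (1.28, 1.55 and 1.08 in SPF, GF and ABX mice, the largest adjusted p being 1.13e-06), from 177 ± 14.5 to 429 ± 42.2 CPM in SPF mice. The interferon gamma receptor chains moved apart, *Ifngr1* falling (-0.40, -0.42 and -0.40) and *Ifngr2* rising in GF (0.22) and ABX mice (0.24). *Nfkb1* fell in GF mice (-0.49, adjusted p = 0.000385). *Irf8*, a factor of microglial identity, rose in ABX 5xFAD against ABX WT mice (0.37) and in GF against SPF 5xFAD mice (0.46, adjusted p = 0.0149), and *Tlr4*, the endotoxin receptor, fell in the latter comparison (-0.59, adjusted p = 0.0154).

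Across the 28 mice the genes whose log2 CPM ran most alike to each member were sought among 8929 expressed genes, as a description over libraries that share group, depth and numbering style. For *Cybb* they were *St14*, *Apoe* and *Clic4* (Pearson r 0.926, 0.926 and 0.925). For *Cyba* they were *Cox4i1* (0.979), *Rplp0* (0.973) and *Ftl1* (0.970), and for *Hvcn1* *Man2b1* (0.901), *Slc2a1* (0.895) and *Ddx31* (0.880). The nearest genes of *Ncf1* were *Grap* (0.858), *Serpinf1* (0.850) and *Mpi* (0.806), and the nearest 2 of *Ncf4* were *Pdlim4* (0.770) and *Cd37* (0.740). No member was among the nearest 3 of another.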

How the data were processed

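RNA of sorted hippocampal microglia was sequenced in 28 mice. The authors amplified it with SMARTer v4, made Nextera XT libraries that do not keep strand, aligned single reads to GRCm38 with STAR 2.7.2 and counted them with featureCounts 1.6.2, and what they deposited is the unnormalised read count of each gene. Exon lengths come from the same table. Groups follow the titles, and all per-sample columns were used.

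Genes were kept by filterByExpr (minimum count 10, minimum total 15), which left 15298 of 48587. They were tested in R 4.3.3 with edgeR 4.0.16 (TMM, robust quasi-likelihood fit, 1 term per group, 28 mice), and p-values were adjusted by Benjamini-Hochberg over all tested genes at a threshold of 0.05. Log2 CPM used a prior count of 2. Exact two-sided permutation tests of log2 CPM (45) were made for single members. Alternatives were RLE, library size alone, no filter, 10 counts in every library, DESeq2 1.42.0, voomWithQualityWeights of limma 3.58.1, fits of the compared groups only or of fewer mice, numbering style as a term and, chosen after seeing the data, length or GC content offsets. Numbering style entered only the comparisons of conditions within 5xFAD mice. The procedure was tested on simulated data.

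The members, pathway lists, motifs and markers were chosen with earlier results of these data known. Pathway genes are named where they passed in 5xFAD against WT in a condition or in GF or ABX against SPF mice, beside *Rac1*, *Rac2*, *Cybc1*, *Nos1* and *Nos3*. Some genes that this rule or the search for similar patterns selects are not reported here, but are included in the counts of their lists. *Cybc1* is listed as BC017643 in the table. Nothing in the labels says more of the replicates than that each is 1 mouse.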

Additional observations from a re-analysis of the deposited data

Results flagged for a closer look

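Of 25 groups of 4 to 6 mice examined over the 5 expressed members, 2 held a mouse far from the others by Dixon's criterion, which chance alone gives in about 1 of 20 groups. *Cybb* was 6.15 CPM in WT_SPF_926, where the other 4 SPF WT mice had 0.460 to 1.18 CPM. With this mouse left out, the genotype effect in SPF mice was 6.32 on the log2 scale in place of 5.24, that of GF against SPF WT mice 4.01 in place of 2.93, and the interaction of GF with SPF mice -3.64 with an adjusted p of 0.0239 (edgeR). Its border-associated macrophage markers summed to 8.15 CPM, the highest of its group, where the others had 3.48 to 7.52. *Cyba* was 647 CPM in FAD_GF_201, the mouse whose description differs from its title and genotype, where the other 4 GF 5xFAD mice had 860 to 938 CPM. Without it the log2 fold change of *Cyba* was 0.90 in 5xFAD against WT GF mice and 0.76 in GF against SPF 5xFAD mice, and both passed.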

How the results depend on the processing

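Of 1023 values of single members recomputed under the alternatives, 985 kept their direction and their side of the threshold, 27 lost the call, 11 gained it and 0 changed direction. Counts of members that passed stayed within 1.5 times in 518 of 534 cases. In 5xFAD against WT SPF mice the count of 2 was 5 with voom, 4 with only the groups compared and 1 without a low-count filter, and it ranged from 1 to 2 when each mouse was left out in turn. For the interaction of GF with SPF mice the count of 0 was 2 with voom, and ranged from 0 to 1 over the mice left out, the 1 coming without WT_SPF_926. For ABX against GF 5xFAD mice the count of 1 was 2 with library size alone and 0 with only the groups compared. For ABX against GF WT mice it ranged from 0 to 1, being 0 without WT_GF_230. The count for GF against SPF 5xFAD mice was 0 with numbering style as a term, and that for GF against SPF WT mice was 0 with only the groups compared. The causes were not tested, beyond fewer mice in the smaller fits. On library totals 20 of the 45 permutation tests had an unadjusted p under 0.05, against 17 with TMM scaling.

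At this depth *Cybb* rested on 12 to 475 reads in WT libraries and the other tested members on 1264 reads or more, so that the spread between mice set their precision. No paired analysis was possible because the mouse numbers differ between groups.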
